A study of Mus musculus with 12 samples.

Results

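The ATP-binding cassette (ABC) genes for pumps of drugs and metabolite conjugates examined here were Abcc1, Abcc2, Abcc3, Abcc4, Abcc5, Abcb1a, Abcb1b and Abcg2. The 8 genes were taken by symbol from the deposited count tables, which list 23186 genes between them, and all 8 were listed in both tables. In mouse embryonic fibroblasts, Abcc1 rose 1.80-fold when an Nrf2 D29H allele was switched on and 1.85-fold when a Keap1 R554Q allele was. Abcc4 rose 1.46-fold with D29H and 2.97-fold with R554Q, and this difference passed a direct test that was sensitive to single libraries. D29H was set against cells labelled Nrf2 knockout and R554Q against Keap1 wild type, so allele and starting state cannot be told apart. Abcc5 rose 1.59-fold with D29H and 1.27-fold with R554Q, and Abcg2 fell in both settings. The calls of Abcc4 with D29H, Abcc5 with R554Q and Abcg2 with either allele were lost in some fits without a library. Abcc3, Abcb1a and Abcb1b passed the test in neither setting, and Abcc2 had almost no reads.

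ABC transporters use ATP to move their substrates across membranes. The multidrug resistance proteins of the Abcc family export glutathione, glucuronide and sulfate conjugates made by detoxifying enzymes, P-glycoproteins (Abcb1a and Abcb1b in the mouse) export bulky hydrophobic drugs, and Abcg2 exports drugs, urate and porphyrins. The transcription factor NRF2, whose gene symbol is Nfe2l2, is known to switch on conjugating enzymes and some of these pumps by binding antioxidant response elements. KEAP1 is the adaptor protein that holds NRF2 low by marking it for degradation.

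RNA was sequenced in 12 libraries of mouse embryonic fibroblasts from embryonic day 13.5 to 14.5, in 4 groups of 3. Cells homozygous for LSL-Nrf2D29H, an allele with a removable stop element, received adenovirus with Cre (Nrf2D29H/D29H) or empty adenovirus (Nrf2LSL/LSL, titled Nrf2 KO and described by the submitters as a functional knockout, here called labelled knockout). Cells homozygous for CA-Keap1R554Q received Cre virus (Keap1R554Q/R554Q) or empty virus (Keap1WT/WT, described as functionally wild type). Virus was used at a multiplicity of infection of 500, and RNA was taken 4 days later. All 12 libraries thus come from cells that carry an engineered allele and adenovirus. No group had Cre virus without a mutant allele, so an effect of Cre and an effect of the allele cannot be told apart. The labels do not say whether replicates were separate cultures or embryos, so the p-values measure the spread between these libraries, which may be technical.

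Libraries held 14963004 to 23818477 counted reads. All 10 fibroblast markers (such as Col1a1, Pdgfra and Thy1) were at 1 or more CPM (counts per 1000000 counted reads, scaled over all 12 libraries) in every group, and they summed to at least 14941 CPM in each library. Macrophage markers, of which 7 of 8 were listed in both tables, summed to 120 to 159 CPM in the Nrf2 groups, 92.3 to 104 CPM in Keap1 wild type and 64.8 to 77.2 CPM in R554Q. The 8 endothelial markers, 7 of them listed in both tables, summed to at most 23.9 CPM in a library, and the 7 epithelial ones to at most 8.86 CPM; Cldn5 was at 0 in labelled knockout and R554Q, and Krt5 in labelled knockout. The 8 neural and muscle markers, of which 6 were listed in both tables, summed to 131 to 174 CPM in the Nrf2 groups and 335 to 411 CPM in the Keap1 groups. In the comparisons of Cre with empty virus, edgeR called 3 of these markers: the fibroblast gene Pdgfra (0.36) rose and the macrophage gene Lyz2 (-0.53) fell with R554Q in log2 units, and the epithelial gene Cldn4 rose with D29H (2.40) and R554Q (1.76). In fits without a library the Pdgfra call was lost in 4 of 6 (edgeR adjusted p up to 0.147; 0.0766 with offsets for base content and length) and the Cldn4 call with D29H in 3 of 6 (up to 0.118). The 3 epithelial markers tested had a median log2 fold change of -0.32 with D29H and -0.05 with R554Q. Those other than Cldn4 thus fell, without a call. All 7 epithelial markers summed to 2.85 to 4.42 CPM in the Nrf2 groups, so the Cldn4 fold there rests on low counts. With D29H edgeR called no fibroblast marker, while 1 was higher and 1 lower in DESeq2 and, in edgeR, at an unadjusted p under 0.05. The part of these other cell types in the results was not tested. In bulk RNA, fewer cells of a type and less RNA per cell cannot be told apart. Nqo1, a classic NRF2 target, had 8.84 ± 1.71 CPM in labelled knockout and 119 ± 13.6 in D29H, and 33.2 ± 0.299 in Keap1 wild type and 351 ± 40.6 in R554Q (SD, n = 3 each). Nfe2l2 reads were present in the labelled knockout (42.7 ± 3.22 CPM, against 52.8 ± 3.53 in D29H; SD, n = 3), so the silencing cannot be checked at gene level. Keap1 itself was at 46.5 ± 4.32 CPM in wild type and 47.2 ± 3.50 CPM in R554Q (SD, n = 3).

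Measured per transcript length, 3 pumps made up most of the transporter transcripts in every group: Abcc1, Abcc5 and Abcg2. Levels between genes are compared here as the authors' deposited FPKM (read counts divided by gene length and library size). In the controls Abcg2 led, with 28.1 FPKM in labelled knockout and 30.1 FPKM in Keap1 wild type, which was 41.5% and 43.9% of the summed FPKM of the 8 genes. Abcc1 was at 15.0 and 17.4 FPKM in those groups, or 22.2% and 25.4% of the sum. Abcc5 was at 15.4 and 13.5 FPKM, or 22.8% and 19.65%. Its labelled-knockout mean was just above that of Abcc1, but replicate 3 had the reverse order (15.1 against 15.4 FPKM). With Cre virus Abcc1 held the largest share, 32.8% in D29H and 39.5% in R554Q. Abcc5 held 29.8% and 20.9% and Abcg2 25.9% and 27.9%, so Abcc5 was second in D29H by group mean. In D29H replicate 1, however, Abcg2 was above Abcc1 (25.6 against 23.8 FPKM), and Abcc5 was the lowest of the 3 (18.9 FPKM). The summed FPKM was 64.4 to 70.2 in the labelled-knockout libraries and 77.8 to 91.6 in D29H, and 64.8 to 75.0 in Keap1 wild type and 80.4 to 87.4 in R554Q, with no overlap between Cre and control libraries of either allele. Abcb1b followed at 4.50 to 6.82 FPKM as group means and Abcc4 at 1.34 to 4.27 FPKM. Abcc3 and Abcb1a stayed below 1 FPKM in every library.

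**Figure D1:**
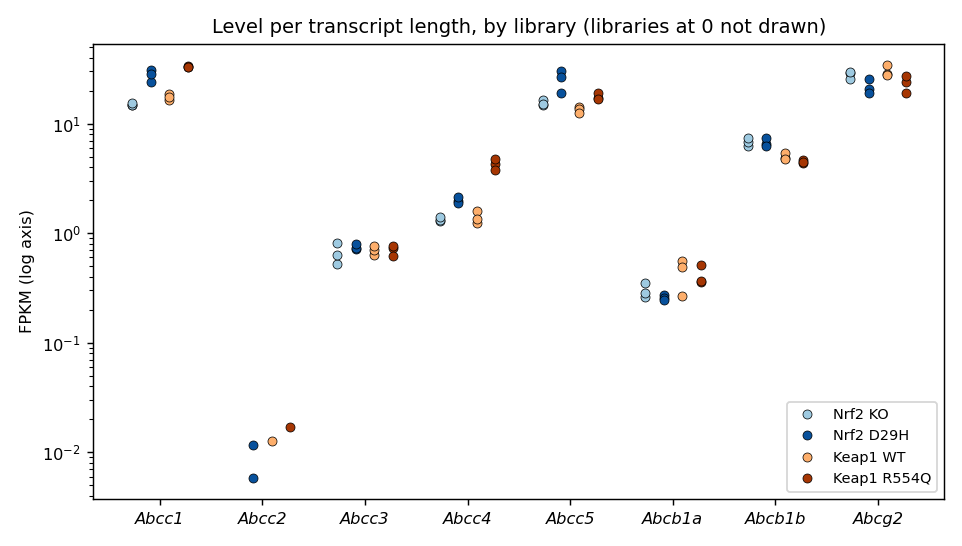
FPKM of the 8 transporter genes on a log axis, with 1 point per library and colours for the 4 groups; libraries listed at 0 (Abcc2) are not drawn. Abcc1, Abcc5 and Abcg2 lie highest, and Abcc4 separates R554Q from the other 3 groups.

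Switching on D29H was compared with the labelled knockout in edgeR's quasi-likelihood test, with a call at a Benjamini-Hochberg adjusted p under 0.05 over all 14370 genes tested. Of the 8 transporters 7 had enough reads to be tested, and 3 of them (Abcc1, Abcc4 and Abcc5) rose, while 3.47% of all genes tested were called higher. The 1 that fell was Abcg2, against 1.28% of all genes. When R554Q cells were set against their wild-type controls, over 14128 genes, the same 3 transporters rose and Abcg2 fell, where 3.77% of all genes were called higher and 2.40% lower. The median log2 fold change of the 7 genes was 0.18 for D29H and -0.02 for R554Q, beside medians of 0.00041 and -0.00099 over all genes tested. The comparisons share no libraries. The libraries of the groups compared were fully apart for 4 of the 7 genes with D29H and 5 with R554Q, where 25.4% and 27.4% of all genes were. In the authors' deposited table the same 4 genes had an adjusted p under 0.05 in both comparisons, with log2 fold changes for Abcc4 of 0.43 and 1.25.

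**Figure D2:**
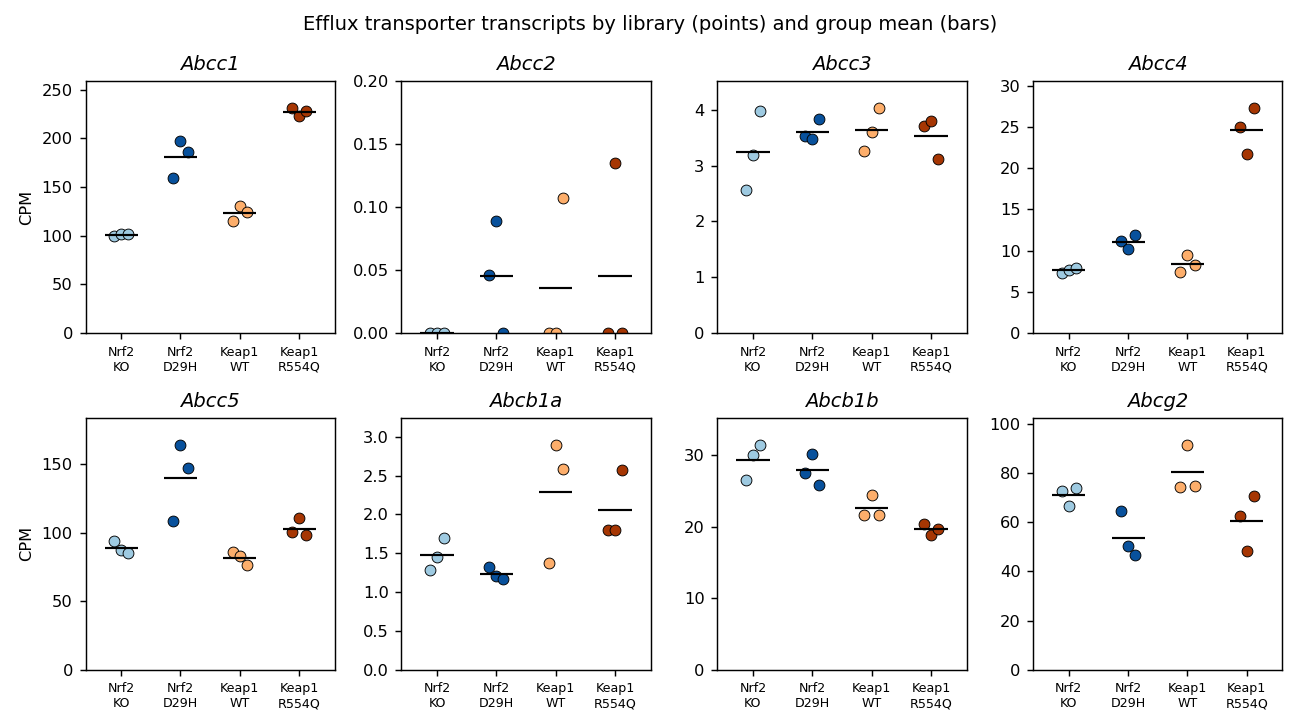
CPM of each transporter in the 12 libraries (points, linear axes from 0) with the mean of each group (bars). Abcc1 is higher in all 6 Cre libraries than in the 6 controls, and Abcc4 is highest in the 3 R554Q libraries, at 21.7 to 27.3 CPM.

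Abcc1 (ENSMUSG00000023088; chromosome 16, 14361558 to 14475737, plus strand, GRCm38) codes for MRP1, an exporter of leukotriene C4 and of glutathione conjugates. Its labelled-knockout libraries had 99.8, 102 and 102 CPM and its D29H libraries 159, 197 and 185 CPM. In the Keap1 cells the wild-type libraries had 115, 131 and 124 CPM and the R554Q libraries 231, 223 and 227 CPM. The groups did not overlap for either allele, and D29H replicate 1 was the lowest of the Cre libraries. D29H raised it by 0.85 on the log2 scale (SE 0.11, edgeR adjusted p 2.04e-05), and R554Q by 0.89 (SE 0.08, adjusted p 7.12e-07). The difference between these effects was -0.04, with a 95% interval from -0.30 to 0.22 (adjusted p 0.934). The order of the 4 groups was labelled knockout, Keap1 wild type, D29H and R554Q, with no overlap of libraries between neighbours. Both calls were kept in all 6 fits that left out 1 library.

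Abcc4 (ENSMUSG00000032849; chromosome 14, 118482692 to 118706219, minus strand) codes for MRP4, an exporter of cyclic nucleotides, prostaglandins and urate. Its RefSeq promoters (GRCm38.p6) were searched on both strands for TGACNNNGC, the core of the antioxidant response element, because NRF2 is the factor that both alleles act on. The 300 bases around a start site (250 before it and 50 after) held this core in 12.4% of 32851 RefSeq promoters. Of the 9 promoters listed for 6 of the 8 transporters 4 held it, and these matches are shown with 10 bases on either side, with the core in capitals:

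Abcc4, promoter at the start site of the tables, chr14:118706226-118706254, minus strand, core on the opposite strand: gccccgagagGCGGGGTCAgggcgggccg

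Abcc4, internal promoter, chr14:118676936-118676964, minus strand: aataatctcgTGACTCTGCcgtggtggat

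Abcc2, chr19:43782200-43782228, plus strand: ctcactgggaTGACATAGCattcatctag

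Abcb1a, chr5:8567107-8567135, plus strand, core on the opposite strand: ctctttgtccGCGGAGTCAgacagaacaa

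Both Abcc4 matches lie just before the start site, at 25 and 23 bases. The Abcb1a entry starts 92986 bases from the start that the tables give, and the Abcc2 entry 116 bases from it. The promoters of Abcc5, Abcb1b and Abcg2 held no such letters in this window. The 250 bases before the start of the main Abcc4 promoter, chr14:118706220-118706469 on the minus strand, and those before the Abcc5 start, chr16:20426395-20426644 on the minus strand, are shown as the transporters that rose and have an entry, the core again in capitals (the Abcc5 stretch has none):

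Abcc4: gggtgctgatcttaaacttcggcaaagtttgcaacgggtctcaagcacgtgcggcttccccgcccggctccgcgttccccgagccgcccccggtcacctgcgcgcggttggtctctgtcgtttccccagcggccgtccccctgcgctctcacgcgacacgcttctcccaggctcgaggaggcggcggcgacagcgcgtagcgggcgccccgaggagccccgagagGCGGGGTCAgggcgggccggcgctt

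Abcc5: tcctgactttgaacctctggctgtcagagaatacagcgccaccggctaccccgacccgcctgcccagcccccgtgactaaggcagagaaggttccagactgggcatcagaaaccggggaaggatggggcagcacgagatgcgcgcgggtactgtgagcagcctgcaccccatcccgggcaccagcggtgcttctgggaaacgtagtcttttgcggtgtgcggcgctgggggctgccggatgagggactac

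The Abcc4 stretch is 72% G and C and the Abcc5 stretch 64%. The xenobiotic response core TNGCGTG, read by the aryl hydrocarbon receptor, was found on either strand in 5.07% of all promoters, and among the 9 in the main Abcc4 promoter only. A match is a description of the letters and not a binding site.

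Abcc4 had 7.33, 7.65 and 7.87 CPM in the labelled-knockout libraries and 11.1, 10.2 and 11.8 CPM in D29H. The Keap1 wild-type libraries had 7.38, 9.46 and 8.22 CPM and the R554Q libraries 24.9, 21.7 and 27.3 CPM. The controls of both alleles overlapped, D29H lay just above them, and every R554Q library lay above every other library. In log2 units the rise was 0.55 with D29H (SE 0.13, edgeR adjusted p 0.0205) and 1.57 with R554Q (SE 0.12, adjusted p 1.39e-07). The D29H call was lost without D29H replicate 2 (adjusted p 0.0604), D29H replicate 3 (0.143) or labelled-knockout replicate 2 (0.0813), at log2 fold changes of 0.61, 0.50 and 0.54. The R554Q call was kept in all 6 fits without a library.

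Abcc4 was the only transporter whose response differed between the alleles in a direct test of the difference over all 12 libraries. The effects start from unlike controls, a labelled knockout for D29H and a functional wild type for R554Q. Allele, control state and culture vary together in this test and cannot be told apart. The D29H effect minus the R554Q effect was -1.01 on the log2 scale (SE 0.17, 95% interval -1.37 to -0.66, adjusted p 0.0436 in edgeR), which is a 2.02-fold smaller rise with D29H. Of all 14794 genes in that test, 0.0203% were called in this direction, 0.00676% in the other and 0.0270% in either. The call was lost in 8 of 12 fits that each left out 1 library, at differences between -1.06 and -0.94 and adjusted p from 0.0591 to 0.208. The libraries concerned were D29H replicates 2 and 3, labelled-knockout replicates 2 and 3, R554Q replicates 1 and 3 and Keap1 wild-type replicates 1 and 3. It was also lost with upper-quartile scaling (adjusted p 0.0541), a mean count of at least 50 (0.0599) and limma with trend (0.0534). Over these fits and the other alternatives the difference stayed between -1.12 and -0.94, while which side of the threshold it fell on varied. No transporter was called with a larger rise in D29H, also at an unadjusted p under 0.05 (0 members) and in DESeq2 (0).

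**Figure D3:**
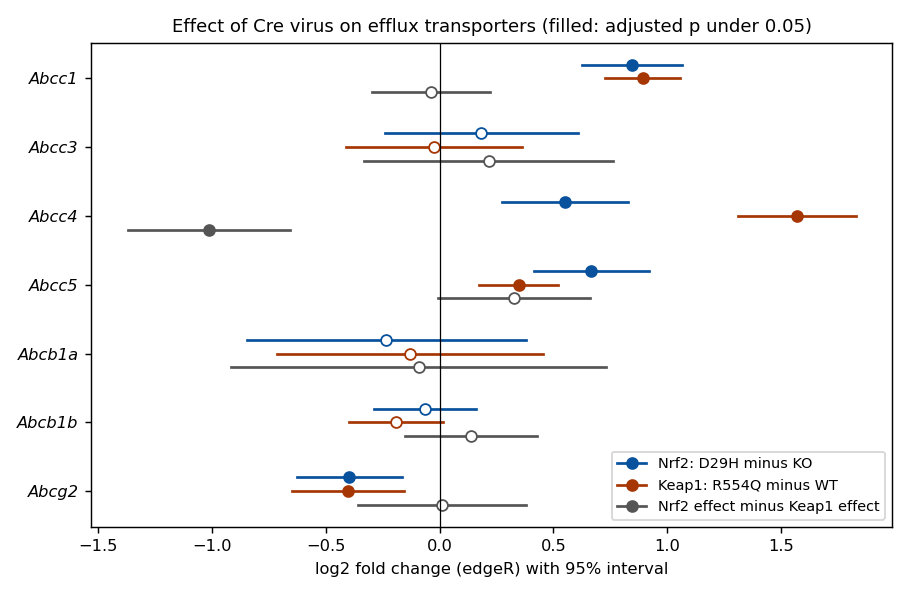
Log2 fold changes of the 7 tested transporters with 95% intervals, for D29H minus labelled knockout, R554Q minus Keap1 wild type and the difference between these effects; filled points have an adjusted p under 0.05. The Abcc4 points lie at 0.55 and 1.57, and the interval of their difference, -1.37 to -0.66, does not reach 0.

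Abcc5 (ENSMUSG00000022822; chromosome 16, 20331303 to 20426394, minus strand) codes for MRP5, an exporter of cyclic nucleotides and nucleotide analogs. The labelled-knockout libraries had 93.7, 87.1 and 85.4 CPM and the D29H libraries 108, 164 and 147 CPM. The Keap1 wild-type libraries had 85.7, 82.6 and 76.4 CPM and the R554Q libraries 100.1, 111 and 98.1 CPM. The Cre libraries lay above their controls for both alleles, and D29H replicate 1 was far below the other D29H libraries. In log2 units the rise with D29H was 0.66 (SE 0.12, edgeR adjusted p 0.00319), and this call was kept in all 6 fits without a library. For R554Q it was 0.35 (SE 0.08, adjusted p 0.0202), and this call was lost in 5 of 6 such fits, with adjusted p from 0.0506 without wild-type replicate 1 to 0.107 without wild-type replicate 3. The other 3 were R554Q replicates 1 and 2 and wild-type replicate 2 (adjusted p 0.0771, 0.0779 and 0.0757). With all 12 libraries in one fit this call was lost as well (0.34, adjusted p 0.0906). The difference between the effects was 0.33, with a 95% interval from -0.0067 to 0.66 (adjusted p 0.453).

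Abcc3 (ENSMUSG00000020865; chromosome 11, 94343295 to 94392997, minus strand) codes for MRP3, an exporter of glucuronides and bile acids, and was low throughout. Its counts ran from 60 to 85 reads per library, or 2.57 to 4.03 CPM, and the ranges of all neighbouring groups overlapped. Its log2 fold change was 0.18 (95% interval -0.24 to 0.61, adjusted p 0.626 in edgeR) for D29H and -0.02 (-0.41 to 0.36, adjusted p 0.956) for R554Q. These intervals leave room for changes from 0.85-fold to 1.52-fold with D29H and from 0.75-fold to 1.29-fold with R554Q. Abcc2 (ENSMUSG00000025194; chromosome 19, 43782192 to 43840740, plus strand) codes for MRP2, the conjugate exporter of bile canaliculi and kidney tubules. It had 1, 2 and 0 reads in D29H, 0 in each labelled-knockout library, 0, 3 and 0 in R554Q and 0, 0 and 2 in Keap1 wild type. It did not pass the filter on low counts, and no fold is given.

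The mouse has a pair of P-glycoprotein genes that are neighbours on chromosome 5. Of the 50-base stretches of annotated Abcb1a transcripts 17.6% also occurred in transcripts of other genes, 889 of 961 such stretches in Abcb1b, so how reads were split within this pair is uncertain. Abcb1b (ENSMUSG00000028970; 8798147 to 8866314, plus strand) had 26.5, 30.1 and 31.5 CPM in labelled knockout and 27.6, 30.2 and 25.9 CPM in D29H. It had 21.7, 24.5 and 21.6 CPM in Keap1 wild type and 20.4, 18.9 and 19.8 CPM in R554Q. The Nrf2 groups overlapped, and the R554Q libraries lay just below those of wild type. The log2 fold change was -0.06 (95% interval -0.29 to 0.16, adjusted p 0.769 in edgeR) for D29H and -0.19 (-0.40 to 0.016, adjusted p 0.247) for R554Q. Abcb1a (ENSMUSG00000040584; 8660077 to 8748575, plus strand) had 26 to 57 reads per library. Its log2 fold changes in edgeR were -0.23 (-0.85 to 0.38, adjusted p 0.673) and -0.13 (-0.72 to 0.45, adjusted p 0.812). Changes from 0.56-fold to 1.30-fold with D29H and from 0.61-fold to 1.37-fold with R554Q lie within those intervals.

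Abcg2 (ENSMUSG00000029802; chromosome 6, 58584523 to 58692869, plus strand) codes for the breast cancer resistance protein and was the only transporter that fell. The labelled-knockout libraries had 72.8, 66.6 and 73.99 CPM and the D29H libraries 64.3, 50.2 and 46.6 CPM. The Keap1 wild-type libraries had 74.5, 91.5 and 74.8 CPM and the R554Q libraries 62.4, 48.1 and 70.6 CPM. The highest Cre library of each allele lay just under its lowest control. D29H gave a log2 fold change of -0.40 (SE 0.11, edgeR adjusted p 0.0403) and R554Q one of -0.40 (SE 0.12, adjusted p 0.0495), which is 1.32-fold lower in both. The difference between the effects was 0.01, with a 95% interval from -0.36 to 0.38 (adjusted p 0.989).

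Both Abcg2 calls lay near the threshold. The D29H call was lost in 5 of 6 fits without a library: without D29H replicate 2 or 3 (adjusted p 0.233 and 0.308) and without labelled-knockout replicate 1, 2 or 3 (0.0591, 0.054 and 0.0558). The R554Q call was lost without R554Q replicate 1 or 2 (0.149 and 0.177) and without wild-type replicate 1, 2 or 3 (0.0664, 0.254 and 0.0966). Offsets that correct for base content and length gave log2 fold changes of -0.35 (adjusted p 0.0555) and -0.29 (0.083). Annotated Abcg2 transcripts have the lowest GC content of the 8 genes, 42.8%, against a median of 50.8% over the genes tested. D29H replicate 1 had the highest Abcg2 and the lowest Abcc5 of its group, and R554Q replicate 2 had the lowest Abcg2 and the highest Abcc5, while D29H replicate 2 was above replicate 3 in both genes. Over the 12 libraries their log2 CPM had a Pearson r of -0.85, a description only, since both genes share each library's preparation and the groups differ. The part of library composition in these changes was not tested.

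**Figure D4:**
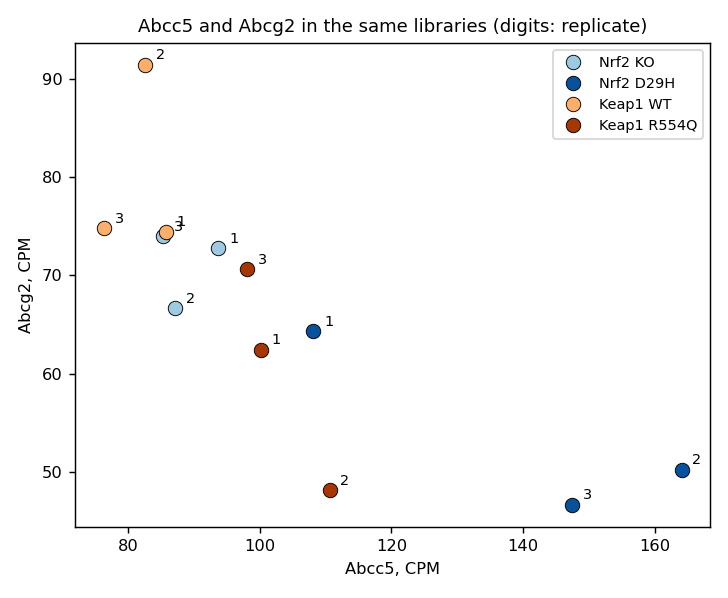
Abcg2 CPM against Abcc5 CPM in the same 12 libraries, with colours for groups and digits for replicates. The 3 lowest Abcg2 values, 50.2 and 46.6 CPM in D29H replicates 2 and 3 and 48.1 CPM in R554Q replicate 2, belong to the 3 libraries with the most Abcc5; within D29H, replicate 2 exceeds replicate 3 in both genes.

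The control states and the mutant states were also compared across the alleles, in the fit over all 12 libraries. Allele and culture vary together here and cannot be told apart, and many genes differed: relative to Keap1 wild type, labelled knockout had 9.58% of the 14794 genes called higher and 10.1% called lower. Of the 7 transporters tested 1 was called higher and 1 lower, and for 3 the libraries of the groups were fully apart, beside 37.2% of all genes. Cell type markers differed in the same contrast, with 5 of 7 macrophage and 6 of 10 fibroblast markers tested called higher in labelled knockout and 3 of 4 neural and muscle and 2 of 3 epithelial markers lower, and their part in the transporter differences was not tested. Abcb1b was higher in labelled knockout, at 29.4 ± 2.56 against 22.6 ± 1.64 CPM (SD, n = 3; log2 fold change 0.37, SE 0.10, adjusted p 0.00915 in edgeR). Abcc1 was lower, at 101 ± 1.08 against 123 ± 7.62 CPM (log2 fold change -0.29, SE 0.09, adjusted p 0.0238). The Abcc1 call was lost without labelled-knockout replicate 1 or 2 (adjusted p 0.0659 and 0.0801) and without wild-type replicate 2 or 3 (0.126 and 0.0785). Without wild-type replicate 1, Abcb1a was called lower as well (log2 fold change -0.90, adjusted p 0.0292).

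Between the mutants, 13.1% of all genes were higher and 13.4% lower in D29H than in R554Q, and 4 of the 7 tested transporters were called. The libraries were fully apart for 4 as well, Abcc1, Abcc4, Abcb1a and Abcb1b, where 37.4% of all genes were. Of the markers tested, 7 of 7 macrophage and 6 of 10 fibroblast markers were higher in D29H, and 1 fibroblast, 3 of 4 neural and muscle and 2 of 3 epithelial markers were lower. Their part in these differences was not tested either. Abcc4 was 2.22-fold lower in D29H (log2 fold change -1.15, SE 0.11, adjusted p 1.56e-07 in edgeR), whereas its controls were at 7.62 and 8.35 CPM and were not called apart (-0.14, 95% interval -0.40 to 0.13, adjusted p 0.512). Abcc1 was lower in D29H (-0.33, SE 0.09, adjusted p 0.00827), and Abcc5 (0.45, SE 0.11, adjusted p 0.00551) and Abcb1b (0.51, SE 0.10, adjusted p 0.000606) were higher. The Abcc5 libraries of the mutants overlapped, with D29H replicate 1 inside the R554Q range, and its call was lost without D29H replicate 2 (0.32, adjusted p 0.0539). Abcb1a, at 26 to 52 reads per library, was at -0.73 (adjusted p 0.0598) and passed the threshold with offsets for base content and length (-0.78, adjusted p 0.0337).

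The genes whose log2 CPM followed each called transporter most closely over the 12 libraries were sought among 10345 other well-covered protein-coding genes. For Abcc1 these were the glutathione synthesis gene Gclc (r 0.98), the glutathione transferase gene Gsta4 (0.98) and the iron exporter gene Slc40a1 (0.97). For Abcc4 they were Cat (0.98), the gene for catalase, Pgd (0.97), of the pentose phosphate pathway, and Ampd3 (0.97). For Abcc5 they were Ahnak2 (0.98), Tet2 (0.96) and Sfi1 (0.96), and for Abcg2 they were Osbpl9 (0.99), Capza1 (0.99) and Tmem59 (0.97). No gene was shared between these lists. The values are the highest of a long search over libraries that fall into 4 groups, and are given as a description with no test.

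The ABC superfamily also holds lipid, peroxisomal and mitochondrial transporters, and 38 other ABC genes were listed. In the Nrf2 comparison 25 of them were tested, of which 3 rose and 0 fell in edgeR, with 4 lower at an unadjusted p under 0.05 and 1 lower in DESeq2. In the Keap1 comparison 23 were tested, of which 2 rose and 1 fell. Their median log2 fold changes were 0.06 and 0.09. The genes that rose in the Nrf2 comparison were Abcd4 (log2 fold change 0.46, adjusted p 0.022 in edgeR), which serves vitamin B12 transport in the lysosome, Abcc10 (0.43, adjusted p 0.0436), the drug pump MRP7, and Abca7 (0.40, adjusted p 0.0469), a lipid transporter. Those that rose in the Keap1 comparison were Abca7 (0.46, adjusted p 0.0108) and Abcd4 (0.46, adjusted p 0.0133), and Abca5, a lipid transporter, fell (-0.43, adjusted p 0.0362). Each of these calls was lost in at least 1 fit without a library, with adjusted p of up to 0.283. With offsets for GC content and length Abca7 was not called in either comparison (0.24, adjusted p 0.122, and 0.18, adjusted p 0.195), nor was Abcc10 in the Nrf2 comparison (0.31, adjusted p 0.0851). Limma with trend also ended the Nrf2 calls of Abcc10 and Abca7 (adjusted p 0.0515 and 0.0565), and the fit of all 12 libraries those of Abcc10 (0.0717) and, with R554Q, Abca5 (0.0534). No other ABC gene was called in the difference between the alleles (0 of 24, with 1 at an unadjusted p under 0.05 and 0 in DESeq2).

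**Figure D5:**
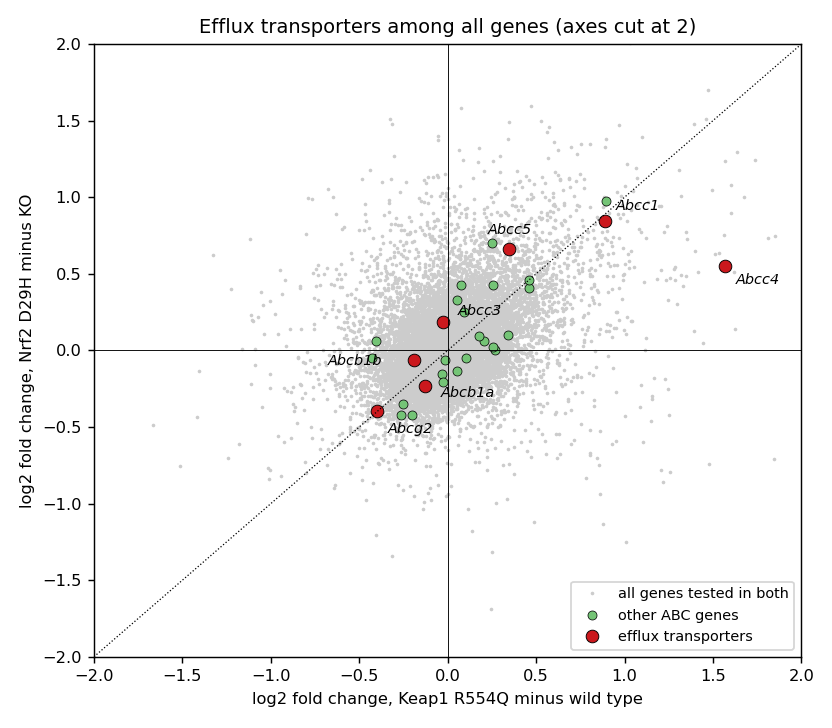
Log2 fold change in the Nrf2 comparison against that in the Keap1 comparison for all genes tested in both (grey), other ABC genes (green) and the 7 tested efflux transporters (red, named), with axes cut at 2 and a dotted line of equal change. Abcc1 lies near the line at 0.89 and 0.85, and Abcc4 lies off it at 1.57 and 0.55.

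The enzymes that make substrates for these pumps were examined as a list of 40 conjugating enzymes. In the Nrf2 comparison 7 of 22 tested genes rose and 0 fell (0 lower at an unadjusted p under 0.05 and in DESeq2 too), with a median log2 fold change of 0.25. The largest rises were in the glutathione transferase genes Gsta1 (log2 fold change 4.47), Gsta4 (3.24), Gstm1 (2.39) and Mgst1 (2.10). Gsta1 had only 1 to 2 reads in each labelled-knockout library and 0 to 6 in Keap1 wild type, so the size of its fold is uncertain, and it ran from 3.35 to 5.03 with D29H over the alternatives. In the Keap1 comparison 9 of 23 rose and 0 fell in edgeR, with 1 lower at an unadjusted p under 0.05 and 1 in DESeq2, and the median was 0.46. The largest rises there were in Gsta1 (4.48), Gsta3 (4.25, with 1 to 4 reads per wild-type library), Gsta4 (3.21) and Gstm1 (1.95). These glutathione transferases have close relatives, and how reads were split among them is uncertain.

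For 22 genes of glutathione supply and conjugate processing, 3 of 17 tested rose with D29H (Gclc, Gclm and Gsr, at log2 fold changes of 1.24, 1.08 and 0.43) and 5 of 16 with R554Q, led by the cystine carrier gene Slc7a11 (2.35), Gclm (1.60), Gclc (1.56) and the glutathione reductase gene Gsr (0.83). None of these genes fell in edgeR, while 2 and 1 were lower at an unadjusted p under 0.05 and 0 and 0 in DESeq2. Gsr lost its D29H call without D29H replicate 2 or 3 or labelled-knockout replicate 1 or 2 (edgeR adjusted p 0.117, 0.0955, 0.0682 and 0.0935). The medians were -0.03 and 0.19. Of 7 reference NRF2 targets, among them Nqo1, Gclm and Slc7a11, 6 rose with D29H (median 1.24) and 7 with R554Q (median 1.60). Slc7a11 was the target not called with D29H (log2 fold change 0.65). Of 40 uptake carriers and other drug transporters 19 and 20 were tested, and Slc22a23 (1.24 and 1.74) and Slc22a17 (0.75 and 0.73) rose with both alleles. Slc22a17 lost its R554Q call without R554Q replicate 1 or 2 or wild-type replicate 2 (adjusted p 0.0825, 0.0755 and 0.0793). No gene of that list fell in edgeR, with 3 and 0 lower at an unadjusted p under 0.05 and 0 and 0 in DESeq2, and the medians were -0.08 and 0.05.

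Among 22 known regulators of transporter genes, of which 18 were tested in either comparison, Ahr, the aryl hydrocarbon receptor gene, rose with both alleles. It went from 17.2 ± 1.03 to 24.6 ± 1.77 CPM with D29H (SD, n = 3; log2 fold change 0.53, adjusted p 0.00959 in edgeR) and from 17.4 ± 1.58 to 30.7 ± 2.02 CPM with R554Q (0.84, adjusted p 4.31e-05). Its D29H call was lost without D29H replicate 2 (adjusted p 0.0781) or labelled-knockout replicate 2 (0.066). Rxra (0.39) and Foxo3 (0.33) rose with R554Q, and with offsets for GC content and length neither was called (0.14, adjusted p 0.248, and 0.04, adjusted p 0.812). Rxra lost its call without R554Q replicate 1 or wild-type replicate 1 (0.0723 and 0.0603), and Foxo3 without R554Q replicate 1 or 2 or wild-type replicate 1 or 2 (0.0634 to 0.123). Of 15 genes that supply leukotrienes and prostaglandins, known substrates of MRP1 and MRP4, 13 were tested. In the Nrf2 comparison 0 were called, with 0 higher and 2 lower at an unadjusted p under 0.05 and 0 in DESeq2. In the Keap1 comparison the leukotriene synthesis gene Alox5 (1.03, adjusted p 0.0382 in edgeR) and the prostaglandin E synthase gene Ptges (0.35, adjusted p 0.0333) rose, and 2 genes were lower at an unadjusted p under 0.05 and 1 in DESeq2. Alox5 lost its call in all 6 fits without a library (adjusted p 0.0639 to 0.131) and Ptges in 4 of 6 (0.101 to 0.136). With offsets for GC content and length neither was called (0.94, adjusted p 0.06, and 0.19, adjusted p 0.212).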

How the data were processed

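Per the file headers, the deposited tables give for every library a read count and an FPKM per gene, in 1 table for the Nrf2 groups and 1 for the Keap1 groups. The submitters' processing notes name STAR, DESeq2 and the build mm10. Which tool counted reads, with which annotation and strand setting, is not given in the sources used here. The deposited FPKM matched values recomputed from the count, gene length and column total, and the deposited group means (a normalised signal) matched counts scaled by DESeq2-type size factors. The authors' deposited log2 fold changes and p-values entered no test. Positions are as the tables list them. All 8 start positions match GENCODE M21 (GRCm38), while the end positions of Abcb1b and Abcg2 do not. An antisense gene with shared exon bases, Gm5106, had 0.722% of the reads of Abcb1b.

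Counts were filtered (filterByExpr), scaled by TMM and tested in edgeR 4.0.16 (R 4.3.3) by the quasi-likelihood test, on 6 libraries per comparison of Cre with empty virus and on all 12 (genes in both tables, 20844) for the differences between alleles, controls and mutants. The SE is the log2 fold change over the square root of the F statistic. CPM are scaled over all 12 libraries, and log2 CPM use a prior count of 2. All pairs of replicates were more unlike than counting noise (chi-square over degrees of freedom 4.95 to 25.1). The alternatives tried were DESeq2 1.42.0, limma 3.58.1 with trend, RLE or upper-quartile scaling, a filter at a mean count of 50 or none, a replicate block, one fit of all 12 libraries, offsets for GC content (mean over annotated transcripts) and gene length (lowess span 0.3), each library left out in turn, and a threshold of 0.01. Named genes followed a rule: all 8 transporters, Nfe2l2, Keap1 and Nqo1, up to 5 called other ABC genes per direction, up to 4 called genes per list and comparison (Gsr, Gclm and Gclc among them), and the 3 genes most like each called transporter (mean of at least 100 counts). The members, lists and rules were chosen with earlier results of these data known. Promoter sequences are from RefSeq (GRCm38.p6); 6 of 8 transporters had an entry.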

Additional observations from a re-analysis of the deposited data

Results flagged for a closer look

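The effect of Cre virus differed between the alleles for 4 genes by a direct test of the difference over all 12 libraries in edgeR, 1 of them a transporter. These were 1 higher and 3 lower genes, against 31 and 40 in DESeq2, 17 and 15 with no filter, and 0 to 11 and 0 to 15 without 1 library. For Abcc4 the D29H effect minus the R554Q effect was -1.01 on the log2 scale (adjusted p 0.0436 in edgeR), and over its alternatives the adjusted p ran from 0.000567 to 0.208. For Slc7a11 the difference was -1.69, for Srxn1 -0.69 and for Mgst1 0.82 (adjusted p 0.0436, 0.0402 and 0.0436). Of 12 fits that each left out 1 library, Slc7a11 and Srxn1 lost their calls in 7 and Mgst1 in 9, with edgeR adjusted p up to 0.208, 0.192 and 0.208. Of 7 other alternatives (scaling, filter, tool or offsets, at the same threshold) Slc7a11 lost its call in 3, Srxn1 in 1 and Mgst1 in 5. The controls differed for these genes too: labelled knockout minus Keap1 wild type was 0.85 for Slc7a11, -0.67 for Srxn1 and -1.40 for Mgst1 in log2 units, and D29H minus R554Q was -0.84, -1.35 and -0.58. The Slc7a11 difference between controls ran from 0.46 to 1.04 over its alternatives. Its call was lost without labelled-knockout replicate 3 or wild-type replicate 1 (edgeR adjusted p up to 0.0829).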

How the results depend on the processing

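Abcc1 was called higher in both comparisons, Abcc4 in the Keap1 comparison and Abcc5 in the Nrf2 comparison, under every alternative run. Counts for transporters called lower were 1 in the Nrf2 and Keap1 comparisons and in the allele difference. In the Nrf2 comparison the count was 0 with upper-quartile scaling, the GC and length offsets, all 12 libraries in one fit and a threshold of 0.01. In the Keap1 comparison it was 0 under these 4, a mean count of at least 50 and the replicate block (adjusted p of Abcg2 0.0682). In the allele difference it was 0 with upper-quartile scaling, a mean count of at least 50, limma, the replicate block (adjusted p of Abcc4 0.182) and a threshold of 0.01. With the controls compared, 0 transporters were lower, against 1, under the block (adjusted p of Abcc1 0.0575) and at 0.01. With the mutants compared, 4 were lower, against 2, with the GC and length offsets (Abcb1a and Abcg2, adjusted p 0.0337 and 0.0406, were added). Without 1 library, transporters higher and lower numbered 2 to 3 and 0 to 1 in the Nrf2 and in the Keap1 comparison, 0 and 0 to 1 in the allele difference, 1 and 0 to 2 between controls, and 1 to 2 and 2 to 3 between mutants.

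Over all genes, the Nrf2 comparison had 498 higher and 184 lower genes. These were 280 higher with the GC and length offsets, 456 lower with no filter, 312 lower with DESeq2, and 115 higher and 23 lower at 0.01. The Keap1 comparison had 533 and 339, against 825 and 677 with no filter, 327 and 157 with the replicate block, 257 higher with the offsets, and 191 and 51 at 0.01. The allele difference had 1 and 3, against 17 and 15 with no filter, 31 and 40 with DESeq2, 0 higher with RLE scaling and with the offsets, 0 and 1 with upper-quartile scaling, a mean count of at least 50 and limma, and 0 and 0 with the block and at 0.01. Between controls there were 1418 and 1493, against 2694 lower with the offsets and 872 and 818 at 0.01. Between mutants there were 1940 and 1987, against 3275 lower with the offsets and 1054 and 1167 at 0.01. Without 1 library, higher and lower genes ran from 72 to 1194 and 9 to 998 in the Nrf2 comparison and from 186 to 1530 and 48 to 1342 in the Keap1 comparison. They ran from 0 to 11 and 0 to 15 in the allele difference, 1034 to 1661 and 984 to 1513 between controls, and 1329 to 2152 and 1441 to 2236 between mutants. The causes of these changes were not tested.

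The replicate numbers are shared by label only: deviations of same-numbered libraries correlated with r from -0.17 to 0.03, so no pairing is assumed and the replicate block is only a check. Under it Slc7a11, Srxn1 and Mgst1 also lost their calls in the allele difference (adjusted p 0.160, 0.182 and 0.182). Abcc3 and Abcb1a had 60 to 85 and 26 to 57 reads per library. Which size of change could be detected for these genes at this depth was not tested.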
